A study of Mus musculus with 32 samples.

Results

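The genes described here encode enzymes and subunits that modify histones, methylate or oxidise DNA, or move nucleosomes. They were chosen by name among protein-coding genes: symbols that begin with Kmt, Kdm, Kat, Chd, Brd or Arid and a digit, symbols that begin with Smarc, Setd, Hdac or Dnmt, and Tet1 to Tet3. The GENCODE M21 mouse annotation holds 104 such genes. Of these, 71 stood in at least 1 of the 4 deposited organ tables, which together list 10055 genes. Of the 104, 59 stood in the table of liver, 5 in that of duodenum, 31 in that of jejunum and 44 in that of ileum. Only Kdm2a and Kmt2e stood in all 4 tables, 20 genes stood in 3, 22 in 2, 27 in 1 and 33 in none. A gene stands in a table only if its unadjusted p-value in the authors' own test was under 0.05. A gene missing from a table therefore has no value here, and every gene in a table had already passed that limit.

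Poly-A RNA was sequenced from 4 organs of male mice (the liver, and from the gut the duodenum, jejunum and ileum), with 4 WT and 4 Khk KO libraries per organ and 32 in all. Its stated interest is how fructose and ketohexokinase (KHK), the enzyme that phosphorylates fructose, bear on iron handling. The comparison in each organ is Khk KO against WT. How Khk was inactivated, the strain, the age and the diet are not given in the sources used here. The labels do not tie the 4 organs to individual animals, and the p-values measure the spread between these libraries, which may be in part technical.

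Histone marks are set and removed by opposing enzymes: lysine methyltransferases against demethylases, and acetyltransferases against deacetylases. Bromodomain proteins bind acetylated histones, and the CHD, ARID and SMARC proteins include the motors and subunits of complexes that use ATP to slide, eject or space nucleosomes. DNMT enzymes methylate cytosine in DNA and TET enzymes oxidise the methyl group. In liver and intestine these enzymes act in nearly every cell type, and acetyl-CoA, S-adenosylmethionine and alpha-ketoglutarate, all products of intermediary metabolism, are their cofactors or substrates. Many of them are large proteins with long transcripts, which is why each was compared with other genes of similar length.

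Khk itself was measured in Khk KO at 11.1% of the WT mean in the liver table and at 4.59%, 9.25% and 6.65% in the duodenum, jejunum and ileum tables. Reads assigned to listed genes ran from 7505439 to 14331517 per liver library and from 6531593 to 9149003 per ileum library. Jejunum libraries had 3053896 to 4325568 and duodenum libraries 1722220 to 3549978, and the full depth is unknown because the tables hold only part of the genes. In liver 8 of 10 hepatocyte markers were listed, 1 called higher (Apob, 56780 normalised counts in WT and 134972 in Khk KO on average) and 6 lower (Ass1, Ttr, Apoa1, Serpina1c, Trf and Fgb), with summed normalised counts of 479111 to 499045 in Khk KO and 499201 to 604318 in WT. Of listed protein-coding genes in liver, 34.9% were called higher and 36.1% lower. The 6 lower markers have 1219 to 3810 bases and Apob has 13934. None of these passed in edgeR with a trend in gene length taken out, as described below. Of 10 enterocyte markers, 1 was listed in duodenum (Sis, 0.29 in the authors' log2 fold change) and 3 in jejunum (Sis at 0.39, Alpi at 0.52 and Apoa4 at -0.54), none called. In ileum 4 were listed, Fabp2 at -0.88, Alpi at -0.53, Apoa4 at -1.53 and Anpep at -0.30, of which Fabp2 was called lower, as were 23.1% of listed protein-coding genes. In bulk tissue, fewer cells of a type and less RNA per cell cannot be told apart. Library WT 1 differed from the other WT libraries of its organ. Over the chromatin genes of the liver table, its median log2 normalised count (pseudocount 1) was 0.57 above the WT mean, against -0.43 to -0.02 for the other WT livers and 0.78 to 0.94 for Khk KO livers. In duodenum, jejunum and ileum WT 1 was the lowest library for these genes, at -0.35, -0.22 and -0.15. In WT 1 of the liver, other genes of at least 8000 bases stood at 0.53 and genes under 2000 bases at -0.31. In the gut, genes under 2000 bases stood at 0.58, 0.53 and 0.51 in WT 1, in the same order of organs. Counts of calls without each library are given beside the liver and ileum results.

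**Figure D1:**
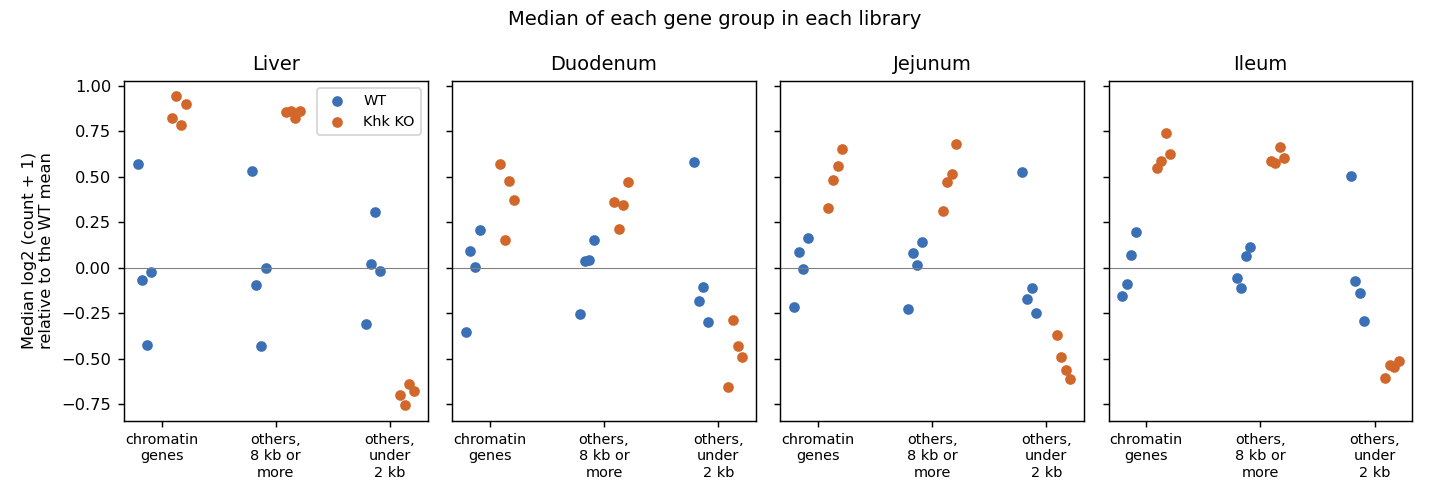
Each point is 1 library: the median, over a group of listed protein-coding genes, of the log2 normalised count plus 1 relative to the mean of the 4 WT libraries of the organ. The chromatin genes lie near the other genes of 8000 bases or more, with Khk KO livers at 0.78 to 0.94, and genes under 2000 bases lie on the opposite side.

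For 4 genes on which the results turn, the 250 bases before the RefSeq start are shown (build GRCm38.p6, all on the minus strand, printed 5′ to 3′), because 3 of them were higher and Kat5 lower in Khk KO liver. The windows are chr9:44881290-44881539 for Kmt2a, chr15:98871206-98871455 for Kmt2d, chr3:133544391-133544640 for Tet2 and chr19:5610095-5610344 for Kat5, for which the table lists 2 starts and the first is printed. The Tet2 window lies wholly inside the gene span given for Tet2 below, so it is not upstream of the start of that span. Capitals mark matches, on either strand, to any of 6 motifs searched. These were the GC box GGGCGG, the E-box CACGTG, the CCAAT box CCAAT, the ETS site CCGGAAG, the NRF1 core GCGCATGC and the CRE TGACGTCA, which 42.7%, 6.64%, 36.3%, 9.13%, 2.99% and 2.01% of 17492 protein-coding windows of that length hold.
Kmt2a: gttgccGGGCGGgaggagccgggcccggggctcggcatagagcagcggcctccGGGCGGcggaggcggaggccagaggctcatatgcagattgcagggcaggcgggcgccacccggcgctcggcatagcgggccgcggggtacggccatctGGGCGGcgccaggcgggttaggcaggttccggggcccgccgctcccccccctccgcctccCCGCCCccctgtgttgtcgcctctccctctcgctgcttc
Kmt2d: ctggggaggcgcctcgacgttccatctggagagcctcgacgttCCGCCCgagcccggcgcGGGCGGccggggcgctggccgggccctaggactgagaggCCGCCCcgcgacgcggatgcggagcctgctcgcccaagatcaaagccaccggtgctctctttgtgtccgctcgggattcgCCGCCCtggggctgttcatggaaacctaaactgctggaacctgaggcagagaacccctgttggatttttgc
Tet2: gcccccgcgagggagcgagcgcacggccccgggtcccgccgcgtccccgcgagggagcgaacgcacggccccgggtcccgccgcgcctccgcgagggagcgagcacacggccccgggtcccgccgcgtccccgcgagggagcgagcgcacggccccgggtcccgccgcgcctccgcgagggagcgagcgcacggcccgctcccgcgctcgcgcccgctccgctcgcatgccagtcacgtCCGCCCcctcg
Kat5: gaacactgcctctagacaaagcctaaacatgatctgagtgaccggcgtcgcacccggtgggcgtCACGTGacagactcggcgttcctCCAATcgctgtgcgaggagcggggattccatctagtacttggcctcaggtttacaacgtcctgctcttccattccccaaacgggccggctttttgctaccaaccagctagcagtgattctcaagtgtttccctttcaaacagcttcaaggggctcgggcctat
The windows of Kmt2a and Kmt2d each hold 4 GC boxes and that of Tet2 holds 1, while that of Kat5 holds 1 E-box and 1 CCAAT box and none of these GC boxes. The G and C share was 76.8%, 67.6% and 83.6% in the first 3 and 55.2% in Kat5. The 4 genes were picked, and other genes of the group differ from them. The windows of Kat2b and Arid4b, called higher in liver, hold no GC box. Those of Hdac11, called lower in liver, and Smarcb1, called lower in ileum, hold a GC box. A match is a description of letters, not a bound site. Windows were found for 52 of the 71 genes, under 80%, so no share over the whole group is given.

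Of the chromatin genes listed in liver, most were higher in Khk KO. In the authors' deposited table, 52 of the 104 genes (50%) had an adjusted p-value under 0.05, 48 higher and 4 lower, where 23.9% of all genes adjusted over were called, 12.5% higher and 11.4% lower. Of all protein-coding genes in the table, 34.9% were called higher and 36.1% lower. The 4 lower genes were Smarce1, Kat5, Hdac1 and Hdac11. The edgeR quasi-likelihood refit with Benjamini-Hochberg adjustment called 34 of the 59 listed genes higher and 2, Smarce1 and Kat5, lower. All 36 of these were among the 52. Of all 6375 listed genes the refit called 1310 higher and 1365 lower. That is 7.19% and 7.49%, together 14.7%, of the 18225 genes adjusted over, but unlisted genes were not fitted. In 42 genes every Khk KO library lay above every WT library and in 3 below, where 32% of protein-coding genes in the table lay wholly above and 33.8% wholly below. The refit called different numbers of these genes depending on the library left out. Without WT 1 it called 49 genes higher and 6 lower, without WT 3 it called 29 and 2, without Khk KO 3 it called 7 and 0, without WT 2 it called 3 and 0, and without WT 4 or Khk KO 1, 2 or 4 it called 0 and 0, with 49 to 54 of the 59 at an unadjusted p under 0.05 in these 4 fits. The number of all genes called moved with it, from 2675 with all libraries to 4860 without WT 1, 14 without WT 4 and 9 without Khk KO 2.

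**Figure D2:**
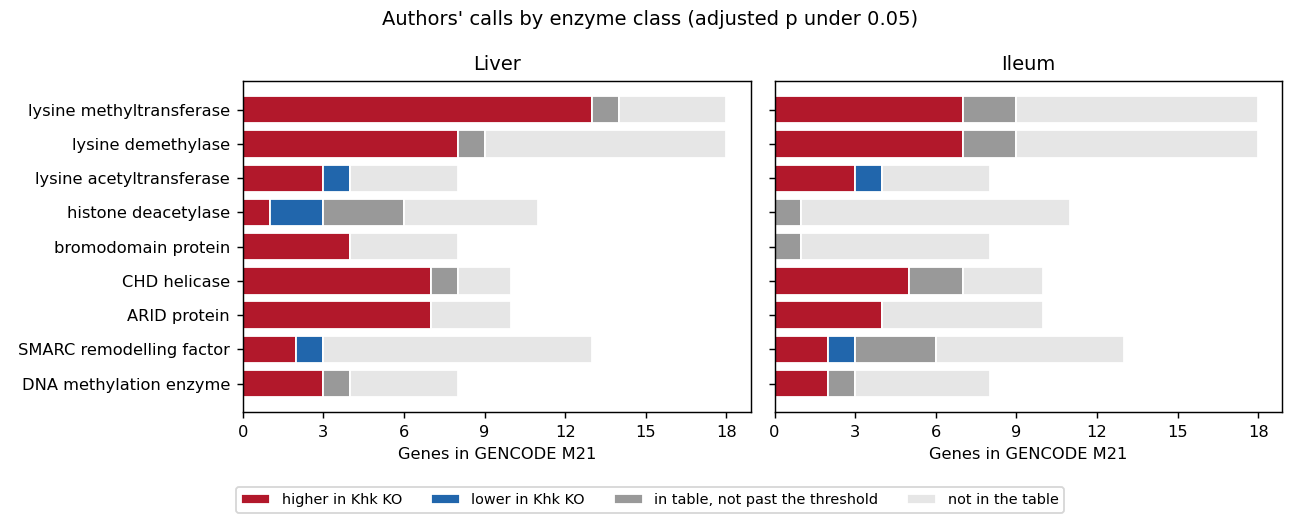
Each bar counts the genes of a class in GENCODE M21, split by the call in the authors' deposited table for liver (left) and ileum (right). Lysine methyltransferases show the most genes called higher in liver, 13 of 18, and histone deacetylases 1 of 11.

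Among lysine methyltransferases 14 of 18 were listed in liver and 13 were called higher in the authors' deposited table, none lower. Kmt2a (ENSMUSG00000002028, chromosome 9, 44803355 to 44881296, minus strand, GRCm38), which encodes the MLL1 enzyme that methylates lysine 4 of histone H3, was the most changed of all the chromatin genes in liver. Its normalised counts were 500.2, 200.2, 71.8 and 139.5 in WT 1 to 4 and 797, 836, 772 and 986 in Khk KO 1 to 4. The WT libraries were widely spread with WT 1 the highest, and all lay below every Khk KO library. The log2 fold change was 1.92 ± 0.47 (SE), with an edgeR adjusted p of 0.0264 that became 0.0762 without WT 4, the highest value with 1 library left out. Without WT 1 the log2 fold change was 2.63. Kmt2d (ENSMUSG00000048154, chromosome 15, 98831669 to 98871204, minus strand), an enzyme of the same mark at enhancers, had 1248, 557, 319 and 543 normalised counts in WT and 2055, 2159, 1879 and 2435 in Khk KO. Again WT 1 was the highest WT library and the groups did not overlap, with a log2 fold change of 1.70 ± 0.35 and an edgeR adjusted p of 0.0196. Its paralog Kmt2c, with 751, 327, 274 and 339.7 in WT and 1132, 1065, 944 and 1197 in Khk KO, changed by 1.38 ± 0.30 (edgeR adjusted p 0.0206). WT 1 lay well above the other WT libraries, which were close together, and below every Khk KO library. Setd1b, the catalytic subunit of another complex that methylates H3 at that residue, changed by 1.49 ± 0.33 (0.0214 in edgeR), and Kmt2b by 0.98 ± 0.26 (edgeR adjusted p 0.0323).

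Kmt2e (ENSMUSG00000029004, chromosome 5, 23434441 to 23504235, plus strand) encodes a SET-domain protein of the MLL group. It had 522, 312, 199 and 396 normalised counts in WT liver and 879.6, 1092, 860.3 and 920.3 in Khk KO liver. No WT library reached the lowest Khk KO library, and the log2 fold change was 1.42 ± 0.26 with an edgeR adjusted p of 0.0181. Of the 50-base windows of its longest transcript, 12.7% also occur in the neighbouring gene Srpk2, so part of its count is uncertain. Setdb2, a methyltransferase of lysine 9 of H3 and with 4047 bases the shortest of the 14 listed of the class, had 223, 241, 321 and 235 in WT and 357, 315, 469 and 418 in Khk KO. The highest WT library, WT 3, lay above the lowest Khk KO library, and the log2 fold change was 0.64 ± 0.17 (edgeR adjusted p 0.0363). Kmt5b, which methylates histone H4, changed by 0.61 ± 0.16 (edgeR adjusted p 0.0331). Setd2, which trimethylates H3 within transcribed genes, passed in the authors' deposited table and missed the threshold in edgeR, at 1.01 ± 0.32 and an adjusted p of 0.0552. Setd7 was listed and passed in neither.

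**Figure D3:**
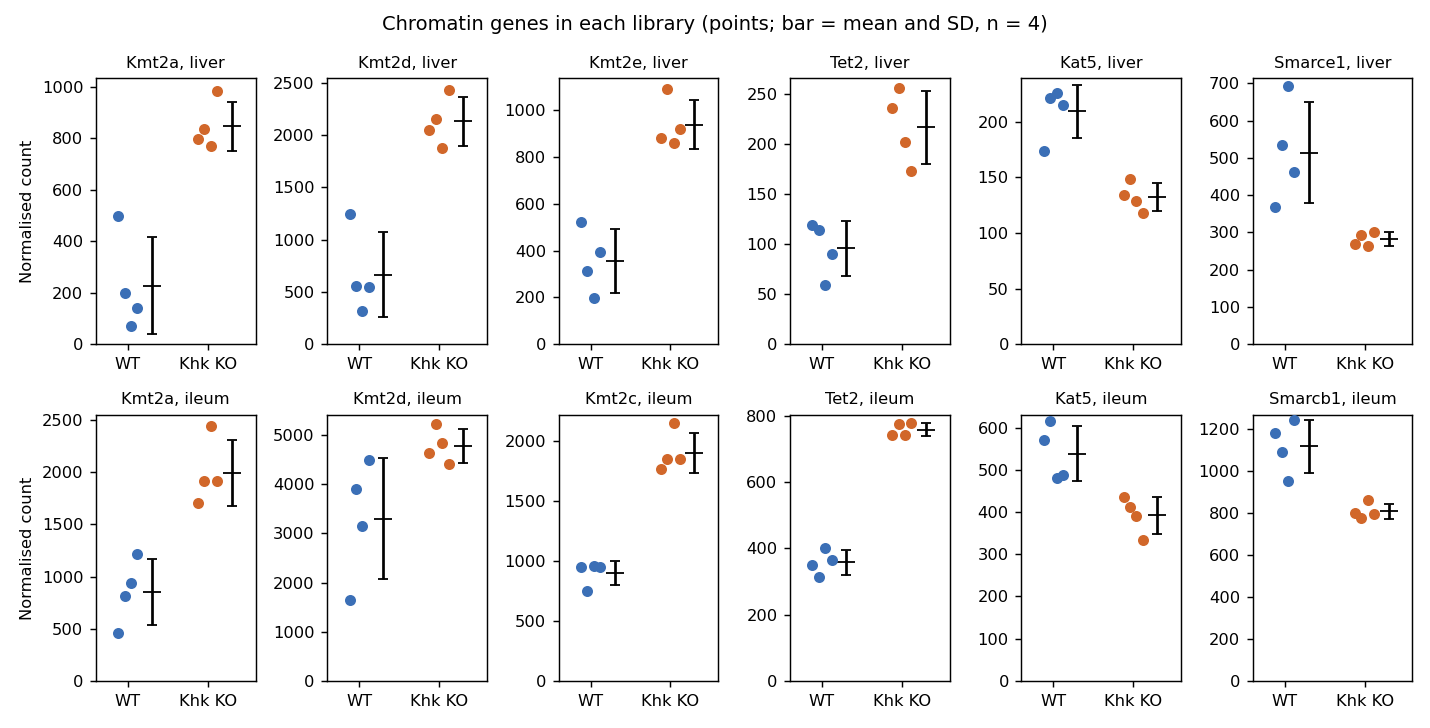
Normalised counts of 12 gene and organ pairs in each WT (blue) and Khk KO (orange) library, with the mean and SD of 4 libraries beside the points and axes from 0. Kmt2d in ileum is the pair shown whose groups overlap, and WT 1 is the first blue point of each panel.

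Lysine demethylases remove these marks. Of 18, 9 were listed in liver and 8 were called higher in the authors' deposited table, all but Kdm5b. The median log2 fold change of the listed demethylases in the authors' deposited table was 0.66, and that of the methyltransferases 0.84. Kdm7a, which demethylates H3 at repressive marks, changed by 1.01 ± 0.26 with an edgeR adjusted p of 0.0309. Kdm2a, a demethylase of H3 in gene bodies and at CpG islands, had 1121, 532, 423 and 546 normalised counts in WT and 1306, 1221, 1210.2 and 1236 in Khk KO. WT 1 lay just under the Khk KO range and the other WT livers far under it. Its log2 fold change was 0.94 ± 0.27 with an edgeR adjusted p of 0.0419. Kdm6a, an X-linked demethylase of the polycomb mark on H3, changed by 0.88 ± 0.20 (edgeR adjusted p 0.0222), and Kdm5d, a Y-linked demethylase of the mark that Kmt2a sets, by 0.77 ± 0.15 (edgeR adjusted p 0.0195). For Kdm5d WT 1 was the lowest WT liver, with 174, 194, 197 and 238 in WT and 376, 319, 312 and 333 in Khk KO. Kdm3a, a demethylase of lysine 9 of H3, had its lowest WT value in WT 1 as well, and passed in the authors' deposited table and not in edgeR, at 0.44 ± 0.13 (adjusted p 0.0520).

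Acetyltransferases and deacetylases split by gene. Of 8 acetyltransferases 4 were listed in liver, with Kat6a, Kat6b and Kat2b called higher and Kat5 lower in the authors' deposited table. Kat6b, a MYST-family enzyme, had 208, 133, 74.1 and 121 normalised counts in WT and 339.6, 376, 353 and 369.8 in Khk KO. Its Khk KO libraries were close together and stood clear of every WT library, with a log2 fold change of 1.45 ± 0.27 and an edgeR adjusted p of 0.0181. Its paralog Kat6a changed by 1.31 ± 0.31 (edgeR adjusted p 0.0244) and Kat2b, a coactivator enzyme also known as PCAF, by 0.51 ± 0.12 (edgeR adjusted p 0.0253). Kat5 (ENSMUSG00000024926, chromosome 19, 5603017 to 5610094, minus strand), the catalytic subunit of the NuA4 complex, is with 2008 bases the shortest listed chromatin gene. It had 174, 222, 226 and 215 in WT and 134, 149, 129 and 118 in Khk KO. Every Khk KO library lay below every WT library, WT 1 being the lowest WT library, with a log2 fold change of -0.63 ± 0.17 and an edgeR adjusted p of 0.0319. Of its 50-base windows 17.2% also occur in Rnaseh2c, so its count is uncertain.

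Histone deacetylases remove acetyl groups. Of 11, 6 were listed in liver, 1 (Hdac4) called higher and 2 (Hdac1, Hdac11) called lower in the authors' deposited table. Hdac4, a signal-responsive class II enzyme of 15813 bases, changed by 0.96 ± 0.24 (edgeR adjusted p 0.0281). Hdac1 and Hdac11 missed the edgeR threshold, at -0.58 ± 0.21 (adjusted p 0.0870) and -0.46 ± 0.15 (adjusted p 0.0588). The 4 deacetylases with a value below 0, these and Hdac3 and Hdac10, span 3379 to 4026 bases. Hdac1 shares 56.4% of its windows with Gm10093 and Hdac11 shares 20.9% with Gm44002, so both counts are uncertain. All 4 bromodomain genes listed in liver were called higher in the authors' deposited table. Brd1, a scaffold protein of acetyltransferase complexes, changed by 1.03 ± 0.25 (edgeR adjusted p 0.0268).

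Of the remodelling proteins, 7 of 8 listed CHD helicases and all 7 listed ARID genes were called higher in liver in the authors' deposited table. Chd9, at 23148 bases the longest listed chromatin gene, had 558, 281, 136 and 281 normalised counts in WT and 756, 793, 884 and 989 in Khk KO. WT 1 was the highest and WT 3 the lowest WT library, and no WT library reached the Khk KO range. The log2 fold change was 1.47 ± 0.34 with an edgeR adjusted p of 0.0241. Chd6 changed by 1.42 ± 0.30, Chd2 by 1.20 ± 0.23, Chd7 by 1.19 ± 0.33 and Chd1 by 1.09 ± 0.28, with edgeR adjusted p-values of 0.0206, 0.0187, 0.0371 and 0.0317. Chd4, the main motor of the NuRD complex, did not pass (0.63 ± 0.28, edgeR adjusted p 0.155). WT 1 was its highest library of all, with 2574, 1368, 835 and 1481 in WT and 2382, 2465, 2356 and 2365 in Khk KO. Among ARID genes, Arid1a, the DNA-binding subunit of the BAF complex, changed by 1.10 ± 0.28 (edgeR adjusted p 0.0282) and Arid2 of the PBAF complex by 0.98 ± 0.23 (edgeR adjusted p 0.0232).

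Of 13 SMARC genes, subunits of BAF and related complexes, 3 were listed in liver. Smarca2, the BRM motor, was higher (0.86 ± 0.26, edgeR adjusted p 0.0467). Smarcc2, a scaffold subunit, passed in the authors' deposited table only, with an edgeR value of 0.47 ± 0.17 (adjusted p 0.0878). Smarce1 (ENSMUSG00000037935, chromosome 11, 99209047 to 99231017, minus strand), a DNA-binding BAF subunit, fell. It had 369, 533, 692 and 463 normalised counts in WT liver and 268, 294, 264 and 301 in Khk KO liver. All 4 Khk KO libraries lay under the lowest WT library, which was WT 1. The log2 fold change was -0.84 ± 0.18 with an edgeR adjusted p of 0.0214. Of 8 DNA methylation enzymes 4 were listed, with Tet2, Tet3 and Dnmt3a called higher in the authors' deposited table and Dnmt1, the maintenance methyltransferase, not past the threshold. Tet2 (ENSMUSG00000040943, chromosome 3, 133463679 to 133545139, minus strand) had 119, 115, 59.0 and 90.2 in WT and 236, 256, 202 and 174 in Khk KO. The groups did not overlap, with a log2 fold change of 1.21 ± 0.25 (edgeR adjusted p 0.0199). Tet3 was higher in both tests (edgeR adjusted p 0.0278), and the de novo methyltransferase Dnmt3a missed the edgeR threshold at 1.01 ± 0.31 (adjusted p 0.0525). In liver all of the called methyltransferases, demethylases and TET enzymes were called in 1 direction, higher. Of other listed protein-coding genes of at least 8000 bases, 76.2% were called higher and 2.61% lower. Between 4000 and 8000 bases these shares were 43.2% and 19.8%.

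Of the chromatin genes listed in ileum, most were again higher in Khk KO. In the authors' deposited table, 32 of the 104 genes (30.8%) were called, 30 higher and 2 lower, where 15.6% of all genes adjusted over were called, 8.76% higher and 6.86% lower. Of all protein-coding genes in the table, 29.1% were called higher and 23.1% lower. The edgeR refit tested 43 of the 44 listed genes and called 26 higher and 2 lower, and 27 of the 28 were among the 32. The 2 lower genes were Kat5 and Smarcb1 in both. Of all 5187 listed genes the refit called 1202 higher and 1019 lower. That is 7.5% and 6.36%, together 13.9%, of the 16034 genes adjusted over, but unlisted genes were not fitted. The Khk KO libraries lay wholly above WT in 31 genes and wholly below in 5, where the shares of protein-coding genes in the table were 36.6% and 32.1%. With 1 library left out the refit called 14 to 30 genes higher and 0 to 3 lower. Unlike in liver, 12 genes passed in all 8 of these fits: Arid2, Arid4b, Chd1, Chd9, Kat6a, Kdm5a, Kdm6a, Kdm7a, Kmt2c, Kmt5b, Setd2 and Tet2. In liver no gene passed in more than 4 of 8. The number of all genes called differed between the organs as well. In ileum it ran from 663 without Khk KO 1 to 2912 without WT 1, and in liver from 9 to 4860. How many of all genes passed in every fit is not given here.

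Of the methyltransferases 9 of 18 were listed in ileum and 7 were called higher in the authors' deposited table. Kmt2c (ENSMUSG00000038056, chromosome 5, 25271798 to 25498783, minus strand) had 946, 754, 954 and 948 normalised counts in WT and 1768, 1852, 2146 and 1847 in Khk KO. WT 2 was low for its group, and every Khk KO library lay far above the highest WT library. The log2 fold change was 1.08 ± 0.11 with an edgeR adjusted p of 0.00149. Kmt2a had 455, 810.3, 934 and 1214 in WT and 1707, 1917, 2447 and 1915 in Khk KO. In contrast to liver, WT 1 was the lowest WT library, and the log2 fold change was 1.20 ± 0.26 (edgeR adjusted p 0.0170). Kmt2d, the second most changed gene in liver, did not pass in ileum: its counts were 1652, 3899, 3158 and 4496 in WT and 4627, 5229, 4846 and 4413 in Khk KO. WT 4 lay inside the Khk KO range and WT 1 far below the other WT libraries, with a log2 fold change of 0.52 ± 0.27 (edgeR adjusted p 0.269). Setd2 changed by 0.78 ± 0.16 (edgeR adjusted p 0.0128) and Kmt5b by 0.60 ± 0.11 (edgeR adjusted p 0.00939).

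Of the demethylases 9 of 18 were listed in ileum and 7 were called higher in the authors' deposited table. Kdm5a, which removes the mark that Kmt2a sets, had 496, 510.2, 642 and 615 normalised counts in WT and 1096, 995, 1121 and 935 in Khk KO. The groups were well separated, with a log2 fold change of 0.87 ± 0.14 and an edgeR adjusted p of 0.00576. Kdm6a changed by 0.82 ± 0.13 (edgeR adjusted p 0.00570), Kdm7a by 0.80 ± 0.14 (edgeR adjusted p 0.00770) and Kdm2a by 0.59 ± 0.13 (edgeR adjusted p 0.0169). Kdm4d, a mostly testis-expressed demethylase, was near the detection limit, with 3.73, 2.69, 1.04 and 10.4 in WT and 0, 0.901, 0 and 0 in Khk KO. Its adjusted value in the authors' deposited table is exactly 1, it was too low for the refit, and no fold is given.

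Of the acetyltransferases Kat6a (0.79 ± 0.14, edgeR adjusted p 0.00877), Kat6b (0.65 ± 0.18, adjusted p 0.0378) and Kat2b (0.49 ± 0.13, adjusted p 0.0297) were higher in ileum. Kat5 was lower, with 569, 615, 481 and 489 normalised counts in WT and 435, 411, 391 and 333 in Khk KO. The groups did not overlap, with a log2 fold change of -0.45 ± 0.13 and an edgeR adjusted p of 0.0487. Only 1 deacetylase, Hdac3, and 1 bromodomain gene, Brd1, were listed, and neither passed. Chd9 changed by 0.80 ± 0.13 (edgeR adjusted p 0.00696), Chd1 by 0.82 ± 0.14 (edgeR adjusted p 0.00768) and Chd2 by 0.78 ± 0.18 (edgeR adjusted p 0.0205), and all 4 listed ARID genes were called higher in the authors' deposited table. Smarcb1 (ENSMUSG00000000902, chromosome 10, 75896769 to 75921617, minus strand), a core BAF subunit, had 1182, 1092, 954 and 1243 in WT and 803, 777, 861 and 794 in Khk KO. Every Khk KO library lay below every WT library, and it fell by 0.46 on the log2 scale (SE 0.11, edgeR adjusted p 0.0221). Smarca1, an ISWI motor, had only 8.70, 24.3, 20.7 and 15.5 in WT and 48.3, 30.6, 48.4 and 37.6 in Khk KO. It was called higher in the authors' deposited table and missed the edgeR threshold, at 1.22 ± 0.38 (adjusted p 0.0561). Tet2 stood out among the DNA methylation enzymes, with 349, 314, 402 and 366 in WT and 742, 776, 741 and 778 in Khk KO. The Khk KO libraries were close to each other and all above the WT libraries, with a log2 fold change of 1.09 ± 0.12 and an edgeR adjusted p of 0.00187. Tet3 changed by 0.52 ± 0.14 (edgeR adjusted p 0.0316).

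In jejunum 30 of the 31 listed genes had a log2 fold change above 0 in the authors' deposited table and 4 were called, Kmt2a, Kmt2c, Kmt2d and Kdm2a, all higher, where 0.759% of all genes adjusted over were called, 0.536% higher and 0.223% lower. Of all protein-coding genes in the table, 2.02% were called higher and 1.09% lower. The edgeR refit called none of the 31 (0.0101% of all genes), with 26 at an unadjusted p under 0.05, and DESeq2 called 11. The share of all genes that DESeq2 called is not given here. The groups did not overlap in 24 genes that were higher and 1 that was lower, where the shares of protein-coding genes in the table were 31.4% and 26.7%. Kmt2a had 559, 561, 592 and 650.0 normalised counts in WT and 719.6, 1032, 1108 and 1225 in Khk KO. WT libraries were close together and all below Khk KO 1, the lowest of its group, with a log2 fold change of 0.78 ± 0.17 (edgeR adjusted p 0.237). Kmt2e had the largest value of the authors' deposited table among these genes and did not pass. Its counts were 251, 885, 808 and 814 in WT and 959, 1215, 1264 and 1423 in Khk KO. WT 1 was far below every other library, and the groups did not overlap, at 0.78 ± 0.35 (edgeR adjusted p 0.297). Hdac3, a class I deacetylase of corepressor complexes, was the single lower gene, with 1474, 1238, 1253 and 1250.1 in WT and 1021, 1129, 1009 and 1046 in Khk KO. The groups did not overlap and WT 1 was the highest library, at -0.31 ± 0.10 (edgeR adjusted p 0.237).

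In duodenum 5 genes were listed and none was called in the authors' deposited table, where 0.224% of all genes adjusted over were called, 0.128% higher and 0.0961% lower (0.471% and 1.02% of the protein-coding genes in the table). The edgeR refit called none of the 5 either (0.0064% of all genes), with 4 at an unadjusted p under 0.05, and DESeq2 called 0. The refit's scaling moved the median of all listed genes by 0.15 against the authors' values, so both are given. Kmt2e had 277, 618, 480.4 and 664 normalised counts in WT and 1011, 653, 729 and 1007 in Khk KO. WT 4 lay above Khk KO 2, and the log2 fold change was 0.74 in the authors' deposited table and 0.85 ± 0.33 in edgeR. Setd1b, Kdm5d and Kdm2a had 0.47, 0.40 and 0.24 in the authors' deposited table. Hdac2, a class I deacetylase, had 675, 607, 639 and 630.1 in WT and 503, 510.0, 569 and 537 in Khk KO. No Khk KO library reached the WT range, at -0.27 in the authors' deposited table and -0.12 ± 0.10 in edgeR. Genotypes did not overlap in 1 gene that was higher (Kdm2a) and 1 that was lower (Hdac2), where the shares of protein-coding genes were 19.8% and 27.1%.

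Across organs, 36 genes stood in both the liver and the ileum table and all 36 had the same sign in both. In 30 of them the log2 fold change was larger in size in liver, a difference that was not tested. Of the called genes 28 were called in both organs in the authors' deposited tables, 27 higher and Kat5 lower, which is 53.8% of the 52 called in liver and 87.5% of the 32 called in ileum. The 4 genes called in jejunum were all called higher in liver, and 3 of them in ileum, all but Kmt2d. The same overlaps over all genes are not given here. Other protein-coding genes of at least 8000 bases also went mostly 1 way in both organs. In liver 76.2% of them were called higher and 2.61% lower, and in ileum 67% and 1.16%. Genes present in 3 or 4 tables numbered 22, and Hdac3 was the only one of these with values below 0. Hdac3 passed in no organ, at -0.27 in liver, -0.31 in jejunum and -0.29 in ileum (edgeR adjusted p 0.239, 0.237 and 0.0836).

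**Figure D4:**
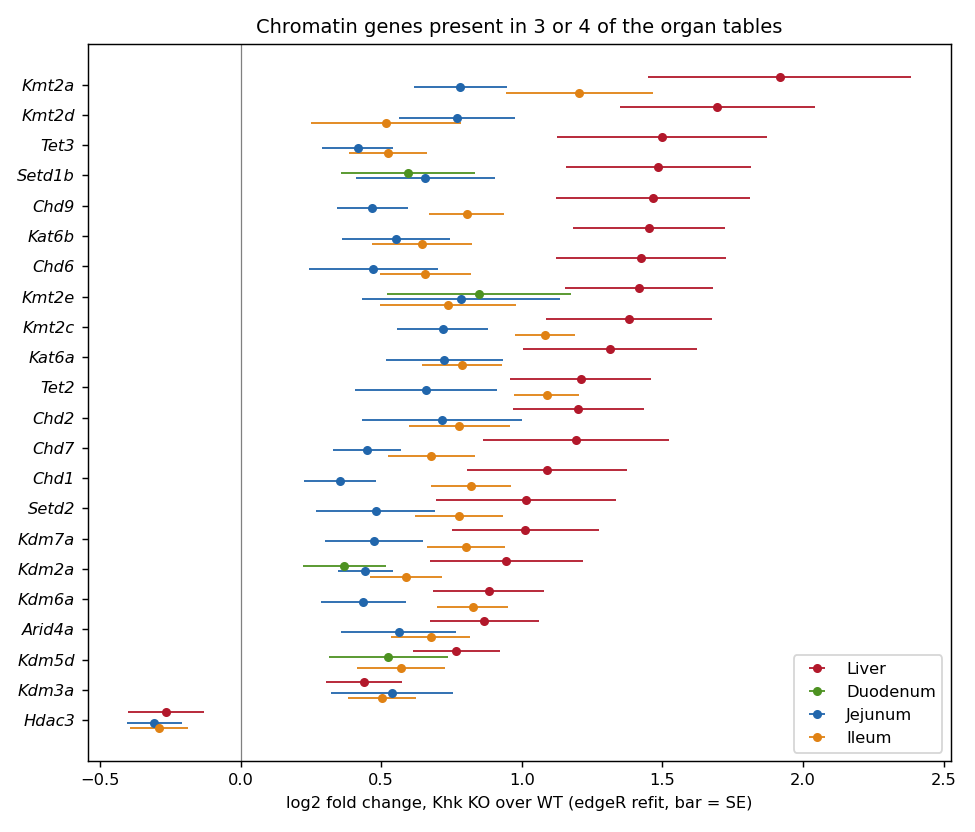
log2 fold change (Khk KO over WT, edgeR refit, bar = SE) of the 22 chromatin genes in 3 or 4 organ tables, ordered by the liver value. Liver values (red) lie to the right of the gut values for all but Kdm3a, from Kmt2a at 1.92 down to Hdac3 at -0.27, which lies left of 0 in 3 organs.

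Gene length ran with the fold change. The listed chromatin genes are long, with a median length of 10060 bases in the liver table, 12068 in that of duodenum, 10444 in that of jejunum and 10745.5 in that of ileum. The medians of all listed protein-coding genes were 4590, 3182.5, 4324 and 4491 bases. In liver 37 of the 40 chromatin genes of at least 8000 bases were called higher and 0 lower in the authors' deposited table, and 76.2% of the 1303 other protein-coding genes of that length were called higher. Of the 4 under 4000 bases, 3 were called lower, as were 58.2% of the 1455 other genes between 2000 and 4000 bases. In ileum the counts were 26 of 32 for the long chromatin genes, against 67% of 1124 others. Within the group the Spearman correlation of length with the authors' log2 fold change was 0.70 over 59 genes in liver, 0.47 over 31 in jejunum and 0.42 over 44 in ileum, against 0.68, 0.56 and 0.70 over the other listed protein-coding genes. These describe genes of the same 8 libraries, which are not independent of each other.

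Each chromatin gene was set beside the 200 other protein-coding genes of its table nearest in length. The median log2 fold change of the chromatin genes was 0.84, 0.40, 0.49 and 0.59 in the authors' deposited tables of liver, duodenum, jejunum and ileum. For all protein-coding genes in the tables, in the same order, the medians were 0.30, -0.34, -0.27 and -0.29, and for the length neighbours 0.77, 0.34, 0.48 and 0.60. The median difference of a chromatin gene from its own neighbours was 0.073, 0.051, 0.026 and -0.0003. In liver 33 of 59 lay above the median of their neighbours, in duodenum 3 of 5, in jejunum 19 of 31 and in ileum 21 of 44. The medians of the group thus lay close to those of its length neighbours in every organ. In liver 6 of 59 and in ileum 4 of 44 lay above at least 90% of their neighbours, close to the 10% of genes that lie there by the definition of the limit. Kmt2a lay above 97.5% of them in liver, 92.5% in jejunum and 94.5% in ileum, and Kmt2d above 94.5%, 91.5% and 25%. Kmt2e lay above 92.5% of its liver neighbours and above 96%, 89% and 75% of those in duodenum, jejunum and ileum. At the other end, Smarce1 in liver lay above 1.5%, Kdm5b above 4% and Kdm3b above 5%, and in ileum Chd8 lay above 4% and Smarcb1 above 6.5%. Kat5, lower in both organs, lay near the middle of its short neighbours, above 43.5% in liver and 64% in ileum by the tables' length.

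**Figure D5:**
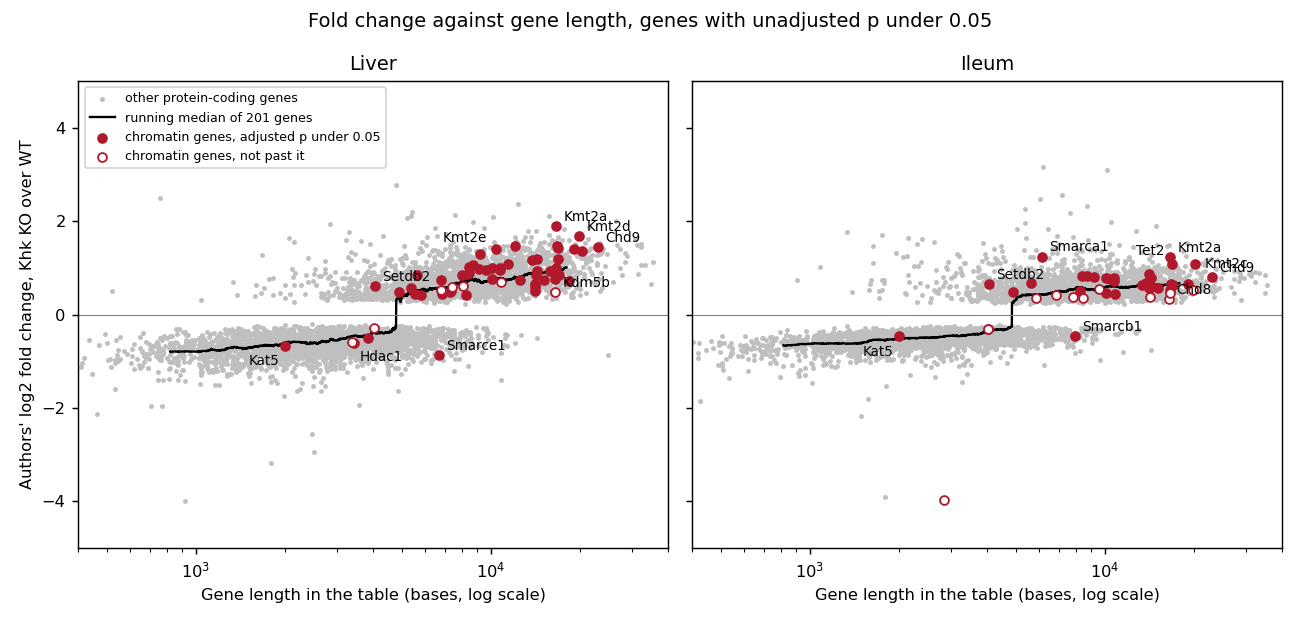
Authors' log2 fold change against gene length (log axis) in liver and ileum. Grey points are other protein-coding genes whose normalised counts average 50 or more, and the black line is their running median, which jumps where the listed genes, all with an unadjusted p under 0.05, pass from mostly lower to mostly higher. Chromatin genes (red, filled where the adjusted p is under 0.05) lie around that line, with Kmt2a above it and Smarce1 and Smarcb1 below. The open point far below in ileum is Kdm4d, and a few grey genes lie beyond the axes.

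When a smooth trend with length was taken out of every library before the edgeR test, 4 of the 59 genes passed in liver and 1 of 43 in ileum. Of all listed genes, 786 of 6375 passed in liver and 476 of 5187 in ileum. That is 4.31% and 2.97% of the genes adjusted over, but unlisted genes were not fitted. In jejunum none of 31 passed (0.0101% of all genes, 3 of the 31 at an unadjusted p under 0.05) and in duodenum none of 5 (0.0128% of all genes, 1 at an unadjusted p under 0.05). The 4 chromatin genes that passed in liver were Kmt2d at 0.69 (edgeR adjusted p 0.0212), Kmt2e at 0.66 (0.0234), Setdb2 at 0.73 (0.0261) and Smarce1 at -1.41 (0.0154). Kmt2a had the highest value of the listed genes in liver, 1.06, and just missed the threshold (edgeR adjusted p 0.0513). In ileum the gene was Smarcb1 at -0.93 (edgeR adjusted p 0.00193), and Tet2 stood at 0.39 (0.0656) and Kmt2c at 0.32 (0.105). Kat5 moved to -0.069 in liver and 0.013 in ileum. The demethylases Kdm5d and Kdm3a, called higher in liver in the authors' deposited table, took the other sign in this fit, at -0.32 and -0.29, as did Kmt2d in ileum at -0.20. A trend fitted in this way also takes out any effect of genotype that follows length. It was fitted on the listed genes alone, all with an unadjusted p under 0.05 in the authors' test. Its steepness over all genes is unknown, so the loss of calls may in part come from that selection.

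The length used matters for single genes. The tables give Smarcb1 7930 bases and Smarce1 6650, while their transcripts with the longest coding sequence in GENCODE M21 have 1660 and 2919. Among 200 genes nearest in coding transcript length Smarcb1 lay above 53% in ileum, near the middle, and Smarce1 above 7% in liver. Kat5 lay lower among its neighbours by this length, above 19% in liver and 38.5% in ileum. With the trend in this length taken out it stood at -0.37 in liver (edgeR adjusted p 0.271) and -0.22 in ileum (0.843). With the trend in coding transcript length taken out, Smarcb1 no longer passed, at -0.092 (edgeR adjusted p 1.00). Kmt2e at 0.57 (edgeR adjusted p 0.0302) and Smarce1 at -0.93 (0.0187) passed in liver under either length, with Kat6b and Setd4 beside them. These are 4 of 59, where 699 of all 6375 listed genes passed (3.84% of the genes adjusted over). In ileum Tet2 at 0.41 (edgeR adjusted p 0.0463) and Smarcd1 at -0.45 (0.0463) passed. These are 2 of 43, where 534 of all 5187 listed genes passed (3.33% of the genes adjusted over). None passed in jejunum or duodenum (0.0101% and 0.0128% of all genes, 0 chromatin genes at an unadjusted p under 0.05 in either). Kmt2d did not pass under this length, at 0.23 in liver (edgeR adjusted p 0.284).

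Levels can be compared between genes only per length. In WT liver the listed chromatin genes had a median FPKM, fragments scaled by the gene length in the tables and by library size, of 3.10 with a range of 0.482 to 27.8. In WT ileum the median was 3.12 and the range 0.0742 to 12.8, against 6.25 for all protein-coding genes in the table.

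Partners of these enzymes outside the naming rule were taken from 7 lists of 178 genes of polycomb, methylation, acetylation, corepressor and remodelling complexes. In liver 97 were listed, 62 called higher and 12 lower in the authors' deposited table, with a median log2 fold change of 0.75, where 34.9% of listed protein-coding genes were called higher and 36.1% lower. In ileum 78 were listed, 41 higher and 5 lower, with a median of 0.51, where those shares were 29.1% and 23.1%. In jejunum 44 were listed and 1 was called higher, where 2.02% of listed protein-coding genes were, and in duodenum 17 were listed and none called. These partners were not matched with other genes on length. Ash1l, a methyltransferase of H3 in gene bodies, had 1.36 in liver in the authors' deposited table, and the polycomb gene Ring1 had -0.73. Among markers of cell state and of other cell types, 7 of 15 proliferation genes were listed in liver, 0 called higher and 4 lower (36.1% of listed protein-coding genes were called lower), with summed normalised counts of 561 to 680 in Khk KO and 755 to 1136 in WT. Of the 4 lower genes, Cdk1 at -1.46 (edgeR adjusted p 0.0484) and Tyms at -1.08 (0.0452) passed with the trend in the tables' length out. Pcna stood at 0.026 in that fit and did not pass, and Ccnb1 was not tested in edgeR. Of 11 markers of non-parenchymal liver cells 4 were listed, 1 higher and 2 lower (3007 to 3581 in Khk KO and 3051 to 7531 in WT), where 34.9% and 36.1% of listed protein-coding genes were. In ileum 4 of 9 crypt and secretory markers were listed, 0 higher and 3 lower (119003 to 143370 in Khk KO and 174497 to 194078 in WT), and 2 of 13 markers of non-epithelial gut cells, 0 higher and 1 lower (36387 to 68381 in Khk KO and 74621 to 97694 in WT), where 23.1% of listed protein-coding genes were called lower. The 3 lower crypt and secretory markers, Chga, Lyz1 and Tff3, have 493 to 2756 bases. With the trend in the tables' length out they stood at -0.22, -0.034 and 0.038 and did not pass in edgeR. Muc2, of 7127 bases and not called in the authors' deposited table, passed in that fit at -0.77 (edgeR adjusted p 0.0112). Of the proliferation genes 2 were listed in ileum, 1 higher and 0 lower, where 29.1% and 23.1% of listed protein-coding genes were. The part of these cell types in the values of the chromatin genes was not tested.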

How the data were processed

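Both genotypes of 4 organs were compared within each organ's table, 4 WT against 4 Khk KO libraries. Reads were aligned with HISAT2 2.0.5 to GRCm38 (mm10), per the submitters' processing notes; the counter and the test are not given in the sources used here. The authors deposited raw read counts per gene, normalised counts (a signal of counts divided by a size factor per library) and FPKM values. The authors also deposited a log2 fold change, a p-value and an adjusted p-value per gene, where an adjusted value of exactly 1 marks genes the authors' adjustment left out. The labels name both directional and non-directional library chemistry, so reads of a gene and of an antisense partner cannot be told apart here.

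Raw counts were refitted with edgeR 4.0.16 (R 4.3.3, TMM scaling, filterByExpr, quasi-likelihood test) per organ on the whole table, with Benjamini-Hochberg adjustment over as many genes as the authors' adjustment covered: 18225 for liver, 15615 for duodenum, 9881 for jejunum and 16034 for ileum. The threshold was an adjusted p under 0.05. Alternatives were DESeq2 1.42.0, the authors' size factors, no filter, adjustment over the listed genes, a replicate block, a trend in GC content or length taken out of every library (lowess, span 0.5, genes of mean 10 or more), and each library left out. Length neighbours were the 200 protein-coding genes, not of the group, nearest in length. The refit was checked on simulated counts. Windows of 50 bases of the longest transcript were searched in other genes to find shared sequence. Summaries used pandas 2.3.3 and scipy 1.17.1 under Python 3.11.15 with numpy 2.4.6, and plots used matplotlib 3.10.9.

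The members and lists were chosen with earlier results of these data known. Named genes were those in liver and ileum with the largest changes past both tests and no overlap, the 8 of lowest p in duodenum and in jejunum, those in 3 or more tables, those past the threshold with length taken out, those called in opposite directions in 2 organs, and those of highest and lowest FPKM. Other named genes (Arid2, Arid4b, Chd4, Chd8, Dnmt1, Dnmt3a, Hdac1, Hdac4, Hdac10, Kdm3b, Kdm5b, Kmt2b, Kmt5b, Setd4, Setd7, Smarca2 and Smarcd1) were chosen after their values were seen, for their role or their place in a count. The values of 1 gene of the group are not reported here.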

Additional observations from a re-analysis of the deposited data

Results flagged for a closer look

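In 12 of 170 groups of 4 libraries, over the 85 pairs of a gene and an organ that the naming rule selects, the highest or lowest library lay far from the other 3. Chance gives this in about 1 in 20 groups. In liver the library was WT 1 each time: Kat6a had 622 normalised counts there and 223 to 264 in the other WT livers, Kmt2c had 751 there against 274 to 339.7, and Kdm3a had 281 there against 332 to 339.7. In jejunum WT 1 was low for Kmt2e, at 251 against 808 to 885, and high for Hdac3, at 1474 against 1238 to 1253. WT 2 was low for Kdm7a, at 423 against 657 to 672, and Khk KO 2 was low for Chd6, at 307 against 406 to 418. In ileum WT 2 was low for Kmt2c, at 754 against 946 to 954, and WT 4 was high for Arid4a, at 591 against 435 to 459.9. Khk KO 2 was low for Kdm7a, at 1421 against 1727 to 1783, and Khk KO 4 was low for Hdac3, at 743 against 878 to 898. For Kdm4d Khk KO 2 had 0.901 and the other Khk KO ilea 0.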

How the results depend on the processing

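The deposited calls fell from 4 to 0 in jejunum at an adjusted p under 0.01. In liver the edgeR refit called 34 genes higher and 2 lower: 53 and 4 when p was adjusted over the listed genes, 3 and 1 with either length trend out, and 0 to 49 and 0 to 6 with 1 library left out. DESeq2 called 51 in liver in either direction. The number of all genes called is not given here for DESeq2, the authors' size factors or the GC trend. Nor is it given for the replicate block or for adjustment over the listed genes. In ileum the refit called 26 and 2, which became 37 and 4 when adjusted over the listed genes, and DESeq2 called 34 in either direction. The lower count became 1 with the authors' size factors and the higher count 9 with the GC trend out. Counts were 0 and 1 with the tables' length trend out, 1 and 1 with the coding transcript trend out, and 14 to 30 and 0 to 3 with 1 library left out. In jejunum the refit called 0 and 0, DESeq2 11 higher, and adjustment over the listed genes 19 and 1. Adjustment over the listed genes says little, because all of them had an unadjusted p under 0.05 in the authors' test. In liver and ileum it called the same 57 and 41 chromatin genes that had an unadjusted p under 0.05 in the refit. The median log2 fold change of 0.86 in liver became 0.72 with the GC trend out, 0.16 with the length trend out, 0.062 with the coding transcript trend out and 0.72 to 0.99 with 1 library left out. In ileum 0.60 became 0.37, 0.0034, 0.030 and 0.50 to 0.68. In duodenum 0.53 became 0.029 and 0.022, and in jejunum 0.47 became 0.075 and 0.017, with the length and coding transcript trends out. The ileum difference from length neighbours, -0.0003, was 0.0011 with 400 neighbours, 0.0088 with neighbours of mean 50 or more and 0.011 with neighbours by coding transcript length. The cause was not tested. The replicate numbers were not taken to pair the libraries, because in no organ did every pair's deviations correlate above 0.1. In jejunum replicates 1 and 4 correlated at 0.31 and 0.29, so a pairing is not excluded. With the replicate block the refit called 37 higher and 1 lower in liver, and 22 and 0 in ileum; with the block and the length trend out 6 and 1 in liver and 0 and 1 in ileum. With the coding transcript length trend out, the genes with the other sign (log2 fold change) were in liver Hdac3 (0.0514), Kat2b (-0.0914), Kdm3a (-0.20), Kdm5d (-0.29) and Kdm7a (-0.0241), in duodenum Kdm2a (-0.13), in jejunum Chd1 (-0.16), Chd6 (-0.0444), Chd7 (-0.13), Chd9 (-0.0655), Kdm2a (-0.0475), Kdm6a (-0.00415), Kdm6b (-0.00611), Kdm7a (-0.10) and Tet3 (-0.0318) and in ileum Brd1 (-0.11), Chd5 (-0.17), Chd6 (-0.0702), Chd7 (-0.0141), Kdm2a (-0.0203), Kdm5d (-0.0713), Kmt2d (-0.37) and Tet3 (-0.00519). With the trend in the tables' length out, the genes with the other sign (log2 fold change) were in liver Kdm3a (-0.29) and Kdm5d (-0.32), in duodenum Kdm2a (-0.13), in jejunum Chd1 (-0.0538), Chd6 (-0.0544), Chd7 (-0.0948), Chd9 (-0.13), Kdm2a (-0.0863) and Tet3 (-0.16) and in ileum Brd1 (-0.13), Chd6 (-0.0743), Kat5 (0.0132), Kat6b (-0.0402), Kdm2a (-0.0685), Kdm5d (-0.10), Kmt2d (-0.20) and Tet3 (-0.17). With that trend out and the replicate block in the fit, the genes with the other sign (log2 fold change) were in liver Kdm3a (-0.25) and Kdm5d (-0.26), in duodenum Kdm2a (-0.13), in jejunum Chd1 (-0.0523), Chd6 (-0.0658), Chd7 (-0.0632), Chd9 (-0.14), Kdm2a (-0.0764) and Tet3 (-0.13) and in ileum Brd1 (-0.13), Chd6 (-0.0544), Chd9 (-0.00105), Kat5 (0.0163), Kat6b (-0.0264), Kdm2a (-0.0682), Kdm5d (-0.10), Kmt2d (-0.13) and Tet3 (-0.17). Both coding transcript alternatives were chosen after seeing the data. Levels are limited by the tables, which leave out every gene with a larger p.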
